A study of Mus musculus with 12 samples.

Results

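Immediate early genes are transcribed within minutes of a stimulus, and the RNA-seq counts of 10 of them were examined in sorted microglia that did or did not express arginase 1. The 10 genes were Fos, Fosb, Jun, Junb, Egr1, Ier2, Atf3, Btg2, Dusp1 and Zfp36, taken by symbol for their known response to tissue dissociation, out of 55487 genes in the table. No measured value entered this rule, but earlier results of these data were known when the genes were chosen. All mice were YARG animals, in which YFP placed after the Arg1 stop codon reports the Arg1 locus, and ARG1+ and ARG1- microglia therefore carried the same reporter allele and differed in YFP at sorting. Tissue of the basal forebrain and striatum was taken at postnatal day 13 without further treatment, and each library was made from the pooled tissue of several mice of 1 sex. The pools were ground on ice, enriched on a cold Percoll gradient and sorted as CX3CR1+ CD206- cells, a gate that removes CD206+ border macrophages, and then by YFP. There were 3 libraries of each sex and population, 12 in all, named here by the number in their label (ARG1- female 1, 2 and 13, ARG1+ female 7, 8 and 15, ARG1- male 5, 6 and 14, ARG1+ male 11, 12 and 16). The paper describes 3 litters per sex and sorted both populations from pooled tissue, so ARG1+ and ARG1- libraries may share litters. The labels do not say which libraries came from the same mice, and the tests took no account of such pairs. The p values therefore measure the spread between these libraries.

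The early response is known for its independence of new protein synthesis. Kinases of the MAPK pathways act on factors already bound at the promoters, among them SRF with its ELK partners and CREB, and the first transcripts encode transcription factors (the AP-1 subunits FOS, FOSB, JUN and JUNB, the zinc-finger factor EGR1 and the stress factor ATF3) together with proteins that end the response (the phosphatase DUSP1, the RNA-binding protein ZFP36 and the antiproliferative factor BTG2). In microglia these transcripts are also known as a mark of the handling of the tissue, mainly of warm enzymatic digestion, so that the levels of both populations matter as well as the difference between them.

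Total counts lay between 28356659 and 60625170 per library. Levels are given as CPM (counts scaled to the TMM-normalized library total), and 3 counts equaled 0.0511 to 0.102 CPM. All 10 of the microglia markers looked for were measured in both populations. Their summed level was 53550 to 65870 CPM in ARG1+ and 63080 to 88020 CPM in ARG1- libraries. Of these 10, edgeR called 6 lower and 1, Sall1, higher in ARG1+ microglia, against 9.42% and 6.44% of all genes tested. The Arg1 transcript had 52 counts in ARG1+ female 15, 2 in ARG1+ female 8 and 0 in every other library, so that the transcript does not separate these libraries as YFP did. The paper also states that its RNA-seq did not detect Arg1 in ARG1+ microglia. By RT-qPCR on sorted cells it reports Arg1 expression restricted to the YFP+ population. Between 19018 and 21734 genes were detected in ARG1+ and between 17846 and 19844 in ARG1- libraries, and the mitochondrial share of counts was 0.147 to 0.396% and 0.247 to 0.636%. Their part in the results below was not tested. In RNA of pooled cells, fewer cells of a type and less RNA per cell cannot be told apart.

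Promoter sequences are shown for Atf3, which differed between the populations, for Fos, the best known early gene, and for the genes whose promoters held the full cyclic AMP response element (Dusp1 and Btg2) or the CArG box (Zfp36). They are 300 bases each, from 250 before to 50 after the start in RefSeq (GRCm38.p6), and 8 of the 10 genes had an entry, Egr1 and Ier2 being the others. The windows of Atf3, Dusp1 and Zfp36 lie inside the gene spans given below, so the start used for them is not the outermost one of the gene. Capitals mark TGACG on either strand, the core of the cyclic AMP response element TGACGTCA that CREB and ATF proteins bind and that contains it, and in Zfp36 the CArG box, which SRF binds. They are read along the gene, 5′ to 3′, at chr1:191183284-191183583 (minus strand, Atf3), chr12:85473640-85473939 (plus strand, Fos), chr17:26508423-26508722 (minus strand, Dusp1), chr1:134079106-134079405 (minus strand, Btg2) and chr7:28379179-28379478 (minus strand, Zfp36).
Atf3: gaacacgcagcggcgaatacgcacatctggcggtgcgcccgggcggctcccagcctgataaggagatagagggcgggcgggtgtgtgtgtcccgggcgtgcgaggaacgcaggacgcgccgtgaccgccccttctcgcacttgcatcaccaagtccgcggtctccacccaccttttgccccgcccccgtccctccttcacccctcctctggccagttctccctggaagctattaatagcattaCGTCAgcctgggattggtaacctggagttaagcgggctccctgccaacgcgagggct
Fos: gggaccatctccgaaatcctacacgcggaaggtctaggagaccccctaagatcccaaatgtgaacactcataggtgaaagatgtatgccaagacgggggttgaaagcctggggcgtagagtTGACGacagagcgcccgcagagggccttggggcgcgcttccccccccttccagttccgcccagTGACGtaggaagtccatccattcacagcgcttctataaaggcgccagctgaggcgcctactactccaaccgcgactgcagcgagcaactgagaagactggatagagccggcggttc
Dusp1: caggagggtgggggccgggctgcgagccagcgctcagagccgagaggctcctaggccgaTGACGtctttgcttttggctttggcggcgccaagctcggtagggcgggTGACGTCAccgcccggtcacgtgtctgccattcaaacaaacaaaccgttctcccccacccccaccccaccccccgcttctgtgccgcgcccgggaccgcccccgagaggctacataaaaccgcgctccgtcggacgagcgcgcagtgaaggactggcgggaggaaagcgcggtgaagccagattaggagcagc
Btg2: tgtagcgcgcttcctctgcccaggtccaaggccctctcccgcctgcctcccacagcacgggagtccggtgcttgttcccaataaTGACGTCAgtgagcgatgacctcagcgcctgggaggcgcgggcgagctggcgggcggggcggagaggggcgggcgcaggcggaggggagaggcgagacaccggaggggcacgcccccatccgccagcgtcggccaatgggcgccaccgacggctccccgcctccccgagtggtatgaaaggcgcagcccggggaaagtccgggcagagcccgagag
Zfp36: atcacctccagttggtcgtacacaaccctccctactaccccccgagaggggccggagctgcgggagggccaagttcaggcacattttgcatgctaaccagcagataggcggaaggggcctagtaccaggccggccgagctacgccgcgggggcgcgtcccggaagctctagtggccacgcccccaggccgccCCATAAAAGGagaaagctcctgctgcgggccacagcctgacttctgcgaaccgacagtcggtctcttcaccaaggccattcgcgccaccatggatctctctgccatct

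The full element TGACGTCA stood 143 bases before the start of Dusp1 and 166 before that of Btg2, and in none of the other 6 promoters read. It was found on either strand in 1.79% of all 32851 promoters of this length. The core TGACG, which overlaps it, was present in 6 of the 8 promoters against 20.8% of all, once in Atf3 at 7 bases before the start and at 129 and 66 bases before the start of Fos. The EGR site GCGNGGGCG was present in 3 (Btg2, Fosb and Zfp36) against 5.55%, and the CArG box in 1 (Zfp36, 58 bases before the start) against 1.63%. TATAAA on the sense strand was present in 2 (Fos and Junb) against 8.32%. In Fos it stood 33 bases before the start, whereas in Junb it began at position 1 on the side after the start. The AP-1 site TGANTCA was in 0 of 8 promoters against 7.81% of all. For this and every other motif, including the CArG box in Fos, a missing match says only that the letters are not in this window. Sequence more than 250 bases before the start was not read, nor were the promoters of Egr1 and Ier2. Matches of this kind describe the sequence and are no evidence of binding.

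The members spanned the range from abundant to nearly undetected transcripts in both populations. Compared per kilobase of exon over the 12 libraries, Btg2 had the highest level at 58.4 ± 9.97 CPM per kilobase (SD, n = 12) and exceeded 95.4% of the genes tested. Junb was next at 56.6 ± 7.8 CPM per kilobase, and these neighbors were not separated, since Btg2 was above Junb in 7 of 12 libraries. Jun followed at 40.0 ± 11.1, below Junb in each of the 12 libraries, then Zfp36 at 18.7 ± 4.0, Atf3 at 11.7 ± 5.53 and Ier2 at 7.56 ± 1.93 CPM per kilobase. Zfp36 was above Atf3 in 10 and Atf3 above Ier2 in 9 of the 12 libraries. Egr1 was near the middle of all genes tested, at 3.04 ± 1.51 CPM per kilobase and above 47.4% of them, and Dusp1 was lower at 1.67 ± 0.828. Fos was at 0.455 ± 0.486 CPM per kilobase, above only 19.5% of the genes tested, and Fosb was at or near 0. Egr1 was above Dusp1, and Dusp1 above Fos, in 11 of 12 libraries, so that Egr1, Dusp1, Fos and Fosb were the 4 members of lowest level per kilobase.

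**Figure D1:**
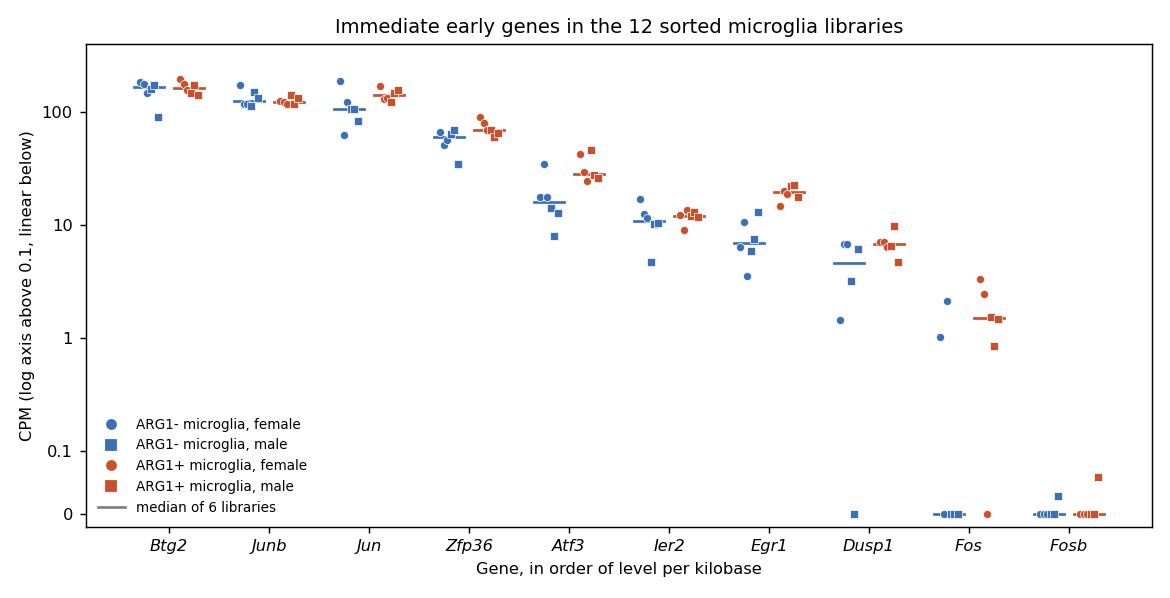
Level of each immediate early gene in each library, in CPM on an axis that is logarithmic above 0.1 and linear below, with ARG1- libraries in blue, ARG1+ libraries in orange, circles for females and squares for males, and a line at the median of 6 libraries. The populations are separated for Egr1 (3.53 to 13 CPM against 14.7 to 22.6 CPM) and overlap for every other gene, and Fos is at 0 in 5 libraries.

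The AP-1 subunits did not differ between the populations at the threshold. Fos (ENSMUSG00000021250, chr12:85473890-85477273 of GRCm38), the founding early gene, had 34, 0 and 125 counts in ARG1- females and 0, 0 and 0 in ARG1- males, against 105, 73 and 0 in ARG1+ females and 68, 41 and 50 in ARG1+ males. It was thus absent at this depth in 4 of 6 ARG1- libraries and in 1 of 6 ARG1+ libraries. Its level was 1.62 ± 1.17 CPM in ARG1+ and 0.525 ± 0.886 CPM in ARG1- microglia (SD, n = 6 each), with an adjusted p of 0.261 by edgeR's quasi-likelihood test, whereas DESeq2's Wald test gave 0.0409. Fosb (ENSMUSG00000003545, chr7:19302696-19310051), which takes the place of FOS in some AP-1 dimers, had 1 count in ARG1- male 14, 2 counts in ARG1+ male 16 and 0 in every other library, too few to be tested. A count of 0 allows up to 3 counts, and this limit, like every interval from counts, covers counting error only, since the reads carried no molecular identifiers.

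Jun (ENSMUSG00000052684, chr4:95049034-95052222), the main partner of FOS, was measured at 187, 63.2 and 122 CPM in ARG1- females, 106, 106 and 84.0 CPM in ARG1- males, 170, 131 and 133 CPM in ARG1+ females and 122, 147 and 158 CPM in ARG1+ males. The highest value of all belonged to ARG1- female 1, and the ranges overlapped. The log2 fold change was 0.37 (SE 0.21, 95% interval -0.09 to 0.83, adjusted p = 0.273 by edgeR). Without ARG1- female 1 it was 0.58 with an adjusted p of 0.0414, so that this 1 library decided on which side of the threshold Jun fell.

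Junb (ENSMUSG00000052837, chr8:84974484-84978718), a JUN relative that forms less active dimers, was the steadiest member. It lay between 118 and 142 CPM in the 6 ARG1+ libraries and between 113 and 174 CPM in the 6 ARG1- libraries, with means of 126 ± 9.29 and 134 ± 24.2 CPM (SD). The log2 fold change was -0.09 (SE 0.12, 95% interval -0.35 to 0.18, adjusted p = 0.689 by edgeR), and its sign turned with library totals in place of TMM (0.01) and without ARG1- female 1 (0.02). Jun shares 232 exon bases with the antisense gene Junos, and Junb shares 173 with Prdx2 on the other strand. The kit does not mark strand, so reads of such a pair cannot be told apart there. Prdx2 itself was at 62.7 to 81.4 CPM in ARG1+ and 108 to 131 CPM in ARG1- libraries, and its part in the Junb value was not tested.

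Egr1 (ENSMUSG00000038418, on chromosome 18), a zinc-finger factor induced by growth signals and neuronal activity, was the clearest difference among the 10 genes. It was measured at 6.42, 10.8 and 3.53 CPM in ARG1- females and 5.87, 7.63 and 13 CPM in ARG1- males. ARG1+ females had 14.7, 20.2 and 18.9 CPM and ARG1+ males 22.3, 22.6 and 17.7 CPM. Every ARG1+ library was thus above every ARG1- library, and Egr1 was the only member with this separation, which 10% of all genes tested showed in 1 direction or the other. The means were 19.4 ± 2.97 and 7.87 ± 3.45 CPM (SD, n = 6 each), a 2.48-fold higher level in ARG1+ microglia by the fit (log2 fold change 1.31, SE 0.28, 95% interval 0.70 to 1.92, adjusted p = 0.00825 by edgeR). The call was made in each of the 12 fits that left out 1 library, with adjusted p values from 0.00545 to 0.0245. Among libraries with label numbers below 13 the ARG1+ values were 14.7 to 22.6 CPM (n = 4) and the ARG1- values 5.87 to 10.8 CPM (n = 4). In the libraries numbered 13 to 16 they were 17.7 to 18.9 and 3.53 to 13 CPM (n = 2 each), again without overlap.

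Atf3 (ENSMUSG00000026628, chr1:191170296-191218039), a stress-induced factor that forms dimers with AP-1 subunits and limits inflammatory transcription, was the other member that was higher in ARG1+ microglia. It was measured at 17.9, 34.8 and 17.7 CPM in ARG1- females and at 14.3, 7.96 and 12.7 CPM in ARG1- males. ARG1+ females had 42.8, 29.3 and 24.5 CPM, and ARG1+ males had 46.6, 27.6 and 26.3 CPM. All ARG1+ libraries were above 5 of the 6 ARG1- libraries, and ARG1- female 2, at 34.8 CPM, lay within the ARG1+ range. The means were 32.8 ± 9.37 and 17.6 ± 9.21 CPM, with a 1.98-fold higher level in ARG1+ microglia (log2 fold change 0.99, SE 0.30, 95% interval 0.35 to 1.63, adjusted p = 0.0401 by edgeR). This call was close to the threshold. It was kept in 3 of the 12 fits with 1 library left out, namely those without ARG1- female 2, ARG1+ female 8 or ARG1+ female 15, and the adjusted p ranged from 0.0127 to 0.0871 while the log2 fold change stayed between 0.81 and 1.22. With ARG1 status alone the adjusted p was 0.0613, and with only the libraries numbered below 13 it was 0.143.

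The members that end the response did not differ at the threshold. Zfp36 (ENSMUSG00000044786, chr7:28376784-28380253), which encodes tristetraprolin and speeds the decay of AU-rich cytokine transcripts, was at 67.2, 51.5 and 56.5 CPM in ARG1- females and 64.1, 69.0 and 34.7 CPM in ARG1- males. ARG1+ females had 90.7, 79.3 and 68.8 CPM and ARG1+ males 70.0, 60.2 and 65.4 CPM. The log2 fold change was 0.33 (SE 0.16, 95% interval -0.02 to 0.69, adjusted p = 0.199 by edgeR), the third smallest p among the members. It shares 125 exon bases with the antisense gene Gm44710, which had 442 counts over all libraries.

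Dusp1 (ENSMUSG00000024190, chr17:26505590-26562128), a phosphatase that inactivates MAPKs, was at 1.44, 6.89 and 6.88 CPM in ARG1- females and at 3.23, 0 and 6.1 CPM in ARG1- males. In ARG1+ microglia it was at 7.07, 7.04 and 6.44 CPM in females and at 6.5, 9.89 and 4.68 CPM in males. The ranges overlapped because 3 ARG1- libraries reached the ARG1+ level while the other 3 lay below it. The fitted log2 fold change of 0.80 had a large error (SE 0.77, 95% interval -0.88 to 2.48, adjusted p = 0.541 by edgeR). Dusp1 shares 11 exon bases with Ergic1 on the other strand, which had 43509 counts over all libraries. The part of Ergic1 in the Dusp1 value was not tested.

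Btg2 (ENSMUSG00000020423, chr1:134075170-134079120), which slows the cell cycle and promotes the removal of mRNA tails, lay between 143 and 196 CPM in ARG1+ and between 91.2 and 185 CPM in ARG1- libraries. The log2 fold change was 0.09 (SE 0.15, 95% interval -0.23 to 0.41, adjusted p = 0.734 by edgeR). Ier2 (ENSMUSG00000053560, chr8:84661331-84662852), a nuclear protein of the early response to growth factors, lay between 8.98 and 13.6 CPM in ARG1+ and between 4.73 and 17.1 CPM in ARG1- libraries. Its log2 fold change was 0.15 (SE 0.25, 95% interval -0.40 to 0.70, adjusted p = 0.743 by edgeR) and fell to -0.02 without ARG1- male 5. The ARG1+ range of Ier2 lay inside its ARG1- range, and that of Btg2 exceeded its ARG1- range only through ARG1+ female 7.

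Of the 10 members, 9 passed the filter on low counts, and 2 were called higher and 0 lower in ARG1+ microglia. At an unadjusted p under 0.05, which 29.1% of all genes reached, these counts were also 2 and 0, and DESeq2 called 3 higher (Fos, Egr1 and Atf3) and 0 lower. Over all genes tested, edgeR called 15.9%, 6.44% higher and 9.42% lower, and DESeq2 called 22.6% of the genes to which it gave an adjusted p, 11.8% higher. The fitted difference was positive for 8 members and negative for Junb, while 46.4% of all genes tested had a negative one, and the median log2 fold change was 0.37 for the members and 0.06 for all genes tested. With 9 members, these counts describe the genes and are no test of the set. The summed level of the 10 genes was 540 to 661 CPM in ARG1+ libraries (median 570) and 385 to 657 CPM in ARG1- libraries (median 481), and the ARG1- library with the highest sum, female 1, exceeded 5 of the 6 ARG1+ libraries. These sums made up 0.0395 to 0.0679% of all counts.

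**Figure D2:**
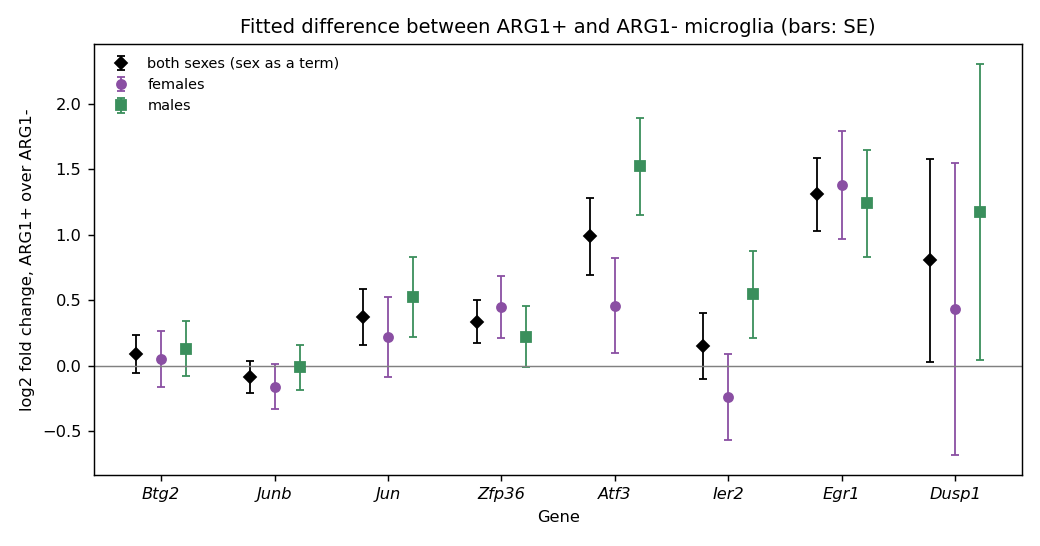
Fitted log2 fold change of ARG1+ over ARG1- microglia for 8 members, over both sexes with sex as a term (black) and within females (purple) and males (green), with bars of 1 SE. Egr1 lies at 1.31 over both sexes, 1.38 in females and 1.24 in males, whereas Atf3 lies at 0.46 in females and 1.52 in males. Fosb was not tested, and Fos is left out because its fold change, with 5 libraries at 0, depends on the prior count of the fit.

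**Figure D3:**
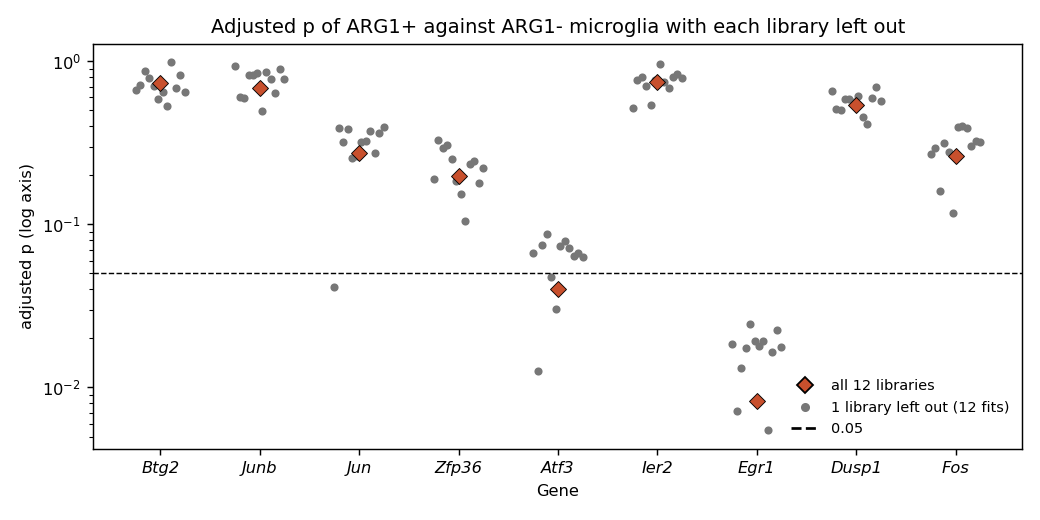
Adjusted p of each member tested, on a log axis, with all 12 libraries (diamonds) and with each library left out in turn (12 points per gene), against the threshold of 0.05 (dashed). All points of Egr1 lie below the threshold, 3 of the 12 points of Atf3 and 1 of Jun do, and 0 of the other members.

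Within each sex, Egr1 had nearly equal differences. Its means were 6.9 ± 3.64 and 17.9 ± 2.84 CPM in ARG1- and ARG1+ females and 8.83 ± 3.71 and 20.9 ± 2.76 CPM in males (SD, n = 3 each). The log2 fold changes of 1.38 (SE 0.41) in females and 1.24 (SE 0.41) in males had adjusted p values of 0.0691 and 0.101 by edgeR. Neither passed the threshold alone by edgeR. By DESeq2 both did, with log2 fold changes of 1.45 in females and 1.26 in males and adjusted p values of 0.00633 and 0.0214. The edgeR test of the difference between the sexes gave an adjusted p of 0.989.

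For Atf3 the values of the sexes lay further apart. The means were 23.5 ± 9.83 CPM in ARG1- and 32.2 ± 9.47 CPM in ARG1+ females, and 11.7 ± 3.29 CPM in ARG1- and 33.5 ± 11.3 CPM in ARG1+ males (SD, n = 3 each). The log2 fold change was 0.46 (SE 0.36, adjusted p = 0.515 by edgeR) in females and 1.52 (SE 0.37, adjusted p = 0.0402) in males. The male call was kept in 3 of 12 fits with 1 library left out, those without ARG1- female 1, 2 or 13. In each fit without a male library it was lost, with adjusted p values from 0.0534 to 0.127 by edgeR. The difference between the sexes was 1.06 on the log2 scale with an unadjusted p of 0.0611 and an adjusted p of 0.562, so that a sex difference of the contrast was not shown.

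Fos had the smallest p of the members for a sex difference of the contrast, 0.0346 before and 0.499 after adjustment by edgeR, with all 3 ARG1- male libraries at 0. It was the only member with an unadjusted p under 0.05 in this test, which 9.32% of all genes reached, and edgeR and DESeq2 called 0 members. Of all genes edgeR called 0% in this test and DESeq2 1.57%. Within females, 0 members were called by edgeR, 1 (Egr1) was higher at an unadjusted p under 0.05, and DESeq2 called 1, also Egr1. Over all genes tested edgeR called 6.76% and DESeq2 14.9%, and 22.9% had an unadjusted p under 0.05. Within males, edgeR called 1 (Atf3) and DESeq2 3 (Fos, Egr1 and Atf3), and these 3 had an unadjusted p under 0.05. Over all genes edgeR called 5.13% and DESeq2 15.1% in males, and 22.8% had an unadjusted p under 0.05. Between females and males of the same population edgeR called 0 members, with 2 (Fos and Atf3) lower in males at an unadjusted p under 0.05 in ARG1- microglia and 0 in ARG1+ microglia. DESeq2 called 1 (Fos, adjusted p = 0.04) and 0. Over all genes tested edgeR called 0.0946% and 0.0355% in these contrasts and DESeq2 2.10% and 0.131%, and 10% and 3.12% had an unadjusted p under 0.05.

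Relative to their means, the 9 members tested varied more among ARG1- than among ARG1+ libraries. The coefficient of variation (SD over mean), taken over the 6 libraries of both sexes together, was larger in ARG1- microglia for all 9. The same was so for 73.2% of the 16776 genes in which it could be computed in both populations. It was 12.8% in ARG1+ against 38.0% in ARG1- microglia for Jun, 13.3% against 36.2% for Ier2, 15.3% against 43.9% for Egr1 and 7.35% against 18.1% for Junb. The median over the members was 15.1% against 38.0%, and over all genes 25.9% against 35.7%. The SD itself was larger in ARG1+ microglia for Fos and Atf3. No test was made of this difference, and 8 of these 9 members also had the lower mean in ARG1- microglia. Because the sexes were pooled, a difference between them counts as spread, and the coefficient was not computed within 1 sex. Atf3 had means of 23.5 CPM in ARG1- females and 11.7 CPM in ARG1- males. Within males its SD was 3.29 CPM around 11.7 CPM in ARG1- and 11.3 CPM around 33.5 CPM in ARG1+ libraries. The extremes were not of 1 library. ARG1- female 1 was the highest ARG1- library for Jun, Junb, Ier2 and Btg2, ARG1- male 14 the lowest for Btg2 and Zfp36, ARG1- male 6 the lowest for Atf3 and Dusp1, and ARG1- male 5 the lowest for Junb and Ier2. Among ARG1+ libraries, female 7 was the highest for Fos, Jun, Btg2 and Zfp36 but the lowest for Egr1.

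After removal of the 4 group means, the members' log2 CPM was compared over the 12 libraries, as a description of libraries that share depth and handling. Of the 36 pairs of members tested, Btg2 and Zfp36 were the most alike (Pearson r = 0.84), followed by Junb and Ier2 (0.64) and Fos and Jun (0.58). At the other end stood Dusp1 with Zfp36 (-0.66) and with Junb (-0.65), and the median over all pairs was -0.05. The genes outside the members whose values followed the members' mean most closely were Cep57l1 (r = 0.93), Nsmf (0.93), Gabpb2 (0.91), Ythdc2 (0.90), Fam122a (0.90) and Lrrc28 (0.89), out of 8945 genes compared. That mean, and so this likeness, was dominated by Fos and Dusp1, whose residual SDs were 1.89 and 1.70 on the log2 scale against 0.18 to 0.44 for the other members, and both had libraries at 0.

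Other genes of the early response were described in lists by role. Together, 5 lists of early response genes held 63 genes, of which 55 were tested, 2 called higher and 3 called lower in ARG1+ microglia, or 9.09% against the 15.9% of all genes tested, with a median log2 fold change of 0.15. Of the other AP-1 and small Maf subunits, 0 of 7 were called in either direction by edgeR or DESeq2, and 0 had an unadjusted p under 0.05. The most abundant of them, Jund, the JUN relative that is expressed without a stimulus, had means of 30.0 CPM in ARG1+ and 29.3 CPM in ARG1- libraries. Its fitted difference was 0.01 on the log2 scale with an SE of 0.23, and edgeR gave an adjusted p of 0.979.

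Among the other early transcription factors, 12 of 17 were tested, and edgeR called 0 higher and 1 lower, with 2 higher and 1 lower at an unadjusted p under 0.05. DESeq2 called 1 of each, the higher one being Klf6 (124 against 102.5 CPM, adjusted p = 0.0414 by DESeq2 and 0.147 by edgeR), named after its values were seen. The lower one by both tools, Cebpd, a C/EBP factor of inflammatory responses, was at 54.5 to 93.6 CPM in ARG1+ and 106 to 151 CPM in ARG1- libraries, without overlap (log2 fold change -0.95, SE 0.15, adjusted p = 0.00197 by edgeR). The relatives of Egr1 were chosen for mention after their values were seen. Egr2 was at 2.16 to 9.32 CPM in ARG1+ and 0 to 5.96 CPM in ARG1- libraries (adjusted p = 0.394 by edgeR), Egr3 reached at most 21 counts, and Egr4 was found in ARG1+ male 12 and 16 alone, with 16 and 15 counts. Nr4a1, an early nuclear receptor, also chosen in this way, was at 0.953 to 8.11 CPM in ARG1+ and 0 to 1.43 CPM in ARG1- libraries (adjusted p = 0.135).

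The early feedback regulators, 15 genes and all tested, held 0 called higher and 1 lower by edgeR and by DESeq2, with 1 higher and 2 lower at an unadjusted p under 0.05. The gene called was Nfkbia, the inhibitor of NF-κB (71.2 against 95.8 CPM, log2 fold change -0.44, adjusted p = 0.0329 by edgeR). Of 14 growth arrest and survival genes, 0 were called by edgeR or DESeq2, with 0 higher and 2 lower at an unadjusted p under 0.05. Sgk1, the most abundant of them and a kinase of the survival response, was at 627 CPM in ARG1+ and 740 CPM in ARG1- microglia (adjusted p = 0.13 by edgeR).

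The early secreted factors moved both ways. Ccl3 and Ccl4, neighboring chemokine genes that microglia release early, were higher in every ARG1+ than in every ARG1- library. Such a separation, also given here for other named genes, was found for 10% of all genes tested in 1 direction or the other. Ccl3 was at 19.1 to 39.3 CPM against 4.35 to 13.9 CPM (log2 fold change 1.82, SE 0.31, adjusted p = 0.00258 by edgeR). Ccl4 was at 15.3 to 33.2 CPM against 3.48 to 14.7 CPM (log2 fold change 1.70, SE 0.32, adjusted p = 0.0049). Il1a, a cytokine of the same early wave, was lower without overlap, at 126 to 179 CPM in ARG1+ and 197 to 392 CPM in ARG1- libraries (log2 fold change -0.83, SE 0.16, adjusted p = 0.00569). Of the 10 genes in this list, 7 were tested, and edgeR called 2 higher and 1 lower, against 15.9% of all genes tested.

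Upstream of the members, 19 kinases and transcription factors were tested, with 1 called higher and 2 lower by edgeR, which called 15.9% of all genes tested. Their median log2 fold change was -0.06, against 0.06 for all genes tested. Elk4, an SRF partner at early gene promoters, was higher in ARG1+ microglia without overlap (21.2 against 12.3 CPM, log2 fold change 0.78, SE 0.18, adjusted p = 0.0125 by edgeR). Rps6ka1 and Rps6ka3, kinases that act downstream of ERK, were lower (log2 fold changes -0.45 and -0.98, adjusted p = 0.00922 and 0.0497). Srf itself was at 10.02 and 10.5 CPM and Creb1 at 82.2 and 86.8 CPM, with adjusted p values of 0.934 and 0.802, and both were named after their values were seen.

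**Figure D4:**
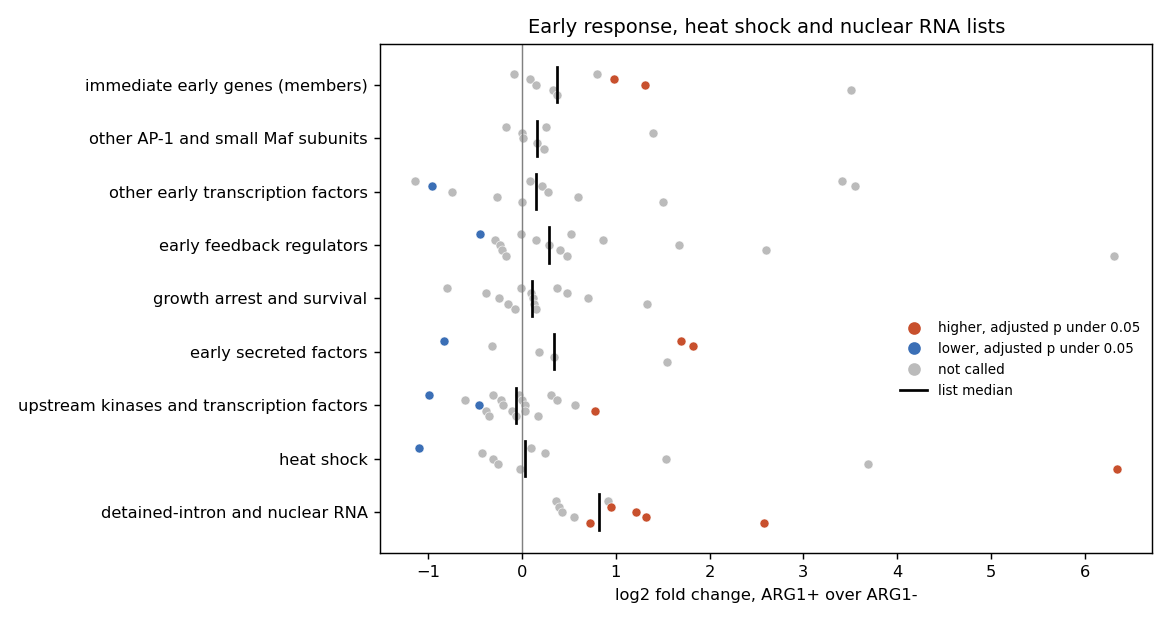
Fitted log2 fold change of ARG1+ over ARG1- microglia for each tested gene of the members and of 8 related lists, with genes called higher in orange, lower in blue and not called in gray, and a line at the list median. The medians of the early response lists lie between 0.11 and 0.37, and that of the detained-intron and nuclear RNA list at 0.82. Fold changes of genes with libraries at 0, such as Fos and Hspb1, depend on the prior count of the fit.

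Heat shock genes and nuclear RNAs were described in further lists. Over all genes, edgeR called 15.9% of those tested and DESeq2 22.6% of those to which it gave an adjusted p. The median log2 fold change of 10 heat shock genes, all tested, was 0.04, against 0.06 for all genes tested. Of these 10, edgeR called 1 higher and 1 lower. The former, the small chaperone Hspb1, had 8, 47, 6, 23, 29 and 14 counts in the ARG1+ libraries and a single count over the 6 ARG1- libraries (adjusted p = 0.00279 by edgeR). The latter, the mitochondrial chaperonin Hspe1, was at 15.4 against 32.6 CPM (log2 fold change -1.09, adjusted p = 0.00493). Of 10 genes with detained introns or nuclear RNAs, 5 were higher and 0 lower, by DESeq2 7 and 0, among them Ccnl2 (305 against 130 CPM), Rsrp1 (2589 against 1055 CPM) and the nuclear RNA Neat1 (42.1 against 7.01 CPM), each without overlap and with adjusted p values of 0.000187, 0.000422 and 0.00166 by edgeR. The summed level of the 10 genes was 4859 to 8248 CPM in ARG1+ and 2313 to 4639 CPM in ARG1- libraries, separated as Egr1 was. Within females edgeR called 7 of them higher and within males 3, against 6.76% and 5.13% of all genes called. Its test of the difference between the sexes called 0 of them. In that test 6 had a smaller difference in males at an unadjusted p under 0.05, which 9.32% of all genes reached. The part of these lists in the Egr1 and Atf3 differences was not tested.

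Markers of other cell types were measured in the same libraries. Over all genes tested, edgeR called 6.44% higher and 9.42% lower, and 29.1% had an unadjusted p under 0.05. Border macrophage markers summed to 127 to 248.5 CPM in ARG1+ and 119 to 151 CPM in ARG1- libraries, with 0 of 6 tested called by edgeR and 0 at an unadjusted p under 0.05. Monocyte markers summed to 3.7 to 7.76 and 5.12 to 14.1 CPM, with 1 of 4 tested higher (Fn1) and 1 lower (Plac8), and Chil3 at 0 throughout. Neutrophil markers summed to at most 0.945 CPM in ARG1+ and 5.15 CPM in ARG1- libraries, with Ly6g and Retnlg at 0, and T cell markers to at most 0.612 and 0.661 CPM, with the CD3 genes, Cd4 and Cd8a at 0. Endothelial markers summed to 44.8 to 83.5 CPM in ARG1+ and 29.8 to 58.1 CPM in ARG1- libraries, with 0 of 5 tested called and Cldn5 at 0. The sums of neuron, oligodendrocyte, astrocyte and erythroid markers had lower medians in ARG1+ libraries (3.72 against 11.6, 71.1 against 135, 146 against 191 and 0.221 against 4.58 CPM), with 0 of 6, 0 of 7, 1 of 8 (Slc1a3) and 1 of 5 (Hbb-bt) called, all of those lower. The part of the markers that were measured in the early gene results was not tested.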

How the data were processed

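Gene expression was measured in 12 libraries of sorted microglia. Per the labels, RNA was amplified with SMART-Seq v4 and made into libraries with Nextera XT. The submitters' processing notes name bcl2fastq 2.20.0, STAR 2.6.1d, featureCounts 1.5.1, DESeq2 1.28.1 and GRCm38. The authors deposited raw counts per gene, without normalization. The strand setting of the counting is not given in the sources used here.

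Symbols and positions came from GENCODE M21, which matched 55227 of 55487 identifiers. The filter on low counts (filterByExpr, by the 4 groups of sex and ARG1 status) kept 16908 genes. After TMM normalization, edgeR 4.0.16 in R 4.3.3 was run as a quasi-likelihood test (glmQLFit, glmQLFTest) on all 12 libraries, with sex and ARG1 status in the model, and p values were adjusted by the Benjamini-Hochberg method over every gene tested (threshold 0.05). Contrasts within 1 sex or 1 population used a model of the 4 groups. The SE of a log2 fold change is its size divided by the square root of F. Pairs of replicates differed by more than sampling noise (chi-square per degree of freedom 40.7 to 125), and each library was counted as 1 replicate. In counts simulated for 16908 genes and the ARG1 contrast, 200 genes were given a change. There edgeR called 30 of 100 genes changed 2-fold and 49 of 100 changed 4-fold, and 5 unchanged genes. The simulated share of changed genes was smaller than the 15.9% called in the data, so these counts do not give the power reached here.

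The members and lists were chosen with earlier results of these data known. Named genes were all members, up to 3 called genes per list and direction with the smallest p (the most abundant gene where none was called), and the 6 genes most like the members with a mean of at least 10 CPM. Others were named after their values were seen. Alternatives were other normalizations and filters, DESeq2 1.42.0, ARG1 status alone, a term for libraries 13 to 16 or their removal, and each library left out in turn.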

Additional observations from a re-analysis of the deposited data

Results flagged for a closer look

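Within each population of 6 libraries, the members' levels and their sum were screened for a single library apart from the rest by Dixon's criterion, which chance meets in about 1 of 20 groups. Of 22 groups searched, 4 held such a library, and for the 2 of Fosb this was given by 5 libraries at 0. Atf3 was at 34.8 CPM in ARG1- female 2, while the other ARG1- libraries lay between 7.96 and 17.9 CPM. Without this library the log2 fold change of Atf3 was 1.22 with an adjusted p of 0.0127 by edgeR. The summed level of the members was 661 CPM in ARG1+ female 7, and 540 to 578 CPM in the other ARG1+ libraries. Fosb was at 0.0593 CPM (2 counts) in ARG1+ male 16 and at 0.0296 CPM (1 count) in ARG1- male 14, with 0 in all others, and both values lie under the limit that a count of 0 allows.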

How the results depend on the processing

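Egr1 was called in 9 of 9 alternatives (log2 fold change 1.30 to 1.40, adjusted p 3.12e-05 to 0.0399) and Atf3 in 7 of 9 (0.90 to 1.12, adjusted p 0.00395 to 0.143), the exceptions being ARG1 status alone (0.90, 1 member higher) and only libraries numbered below 13 (1.12, 1 member higher and 1 listed gene lower). That last alternative, with fewer libraries, called 638 genes (304 higher, 334 lower). DESeq2 called 4131 genes (2155 higher), Fos among them (adjusted p = 0.0409), 1 member in females, 3 in males and 1 between the sexes in ARG1- microglia. Library totals in place of TMM turned Junb to 0.0109 and the split of higher and lower genes from 1089 and 1593 to 1428 and 1159. With 1 library left out, 1753 (without ARG1+ male 12) to 2669 genes were called, 690 (without ARG1+ male 12) to 1116 higher and 1048 (without ARG1+ male 16) to 1553 lower, 1 to 2 members higher and 0 lower, 9 to 12 listed genes higher and 4 to 6 lower, and 0 to 1 members in either sex. Junb then ranged from -0.14 to 0.01835 (without ARG1- female 1) and Ier2 from -0.022 (without ARG1- male 5) to 0.28. The ratio of the summed levels was 1.19, and 1.78 from mean log2 CPM, where Fos and Dusp1 weigh more. The causes were not tested. Fosb could be fitted only without a filter on low counts or by DESeq2. No paired analysis was run, because the labels do not say which ARG1+ and ARG1- libraries came from the same pool. Any sharing of litters between the populations was therefore left out of the tests.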
